A study of Mus musculus with 8 samples.

Results

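The genes considered here encode proteins of fetal serum and of lipoprotein particles, and were followed in mouse kidneys: Afp and Alb, the carriers Ttr, Trf and Rbp4, and the apolipoproteins Apoa1, Apoa2, Apob, Apoc1 and Apoe. All 10 were found on the array among 20887 named genes, by matching each probe's accession to a RefSeq gene, and they were represented by 13 probes on 40 spots. The genes were selected on their function and on the knockout against wildtype ratios of these same arrays, which were known at the time. Their differences between the groups are therefore given as a description, with a standard error and no p-value.

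Kidney pairs were taken from 8 C57BL/6 embryos at embryonic day 16.5. Of these, 4 were wildtype controls (WT1 to WT4) and 4 lacked Dot1 conditionally in the nephron progenitors marked by Six2 (KO1 to KO4). Dot1 is read here as Dot1l, the gene of a histone H3 methyltransferase. The labels name neither the Cre line nor any treatment. A whole kidney also holds stroma, vessels, blood cells and the collecting duct, which do not descend from these progenitors, so fewer cells of a type and less RNA per cell cannot be told apart. Each sample was labelled in red (Cy5) and hybridised with WT1 RNA in green (Cy3), and every level below is a log2 ratio of the sample over that reference unless it is given in scanner units.

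Some facts of the whole experiment bear on every value. The median negative-control spot in red was 58 to 61 units on 6 arrays but 1361 on WT1 and 478.25 on KO1. The green signals come from the same WT1 RNA on every array. Their median correlation with the 6 arrays was 0.558 for WT1 and 0.903 for KO1, against 0.996 to 0.997 among the 6. Results are also given without WT1 and KO1, while the main values include both. By their Y-linked probes all 4 KO embryos and WT2 were male and the other 3 WT embryos female, and all WT arrays lay in a different row of the slide from all KO arrays, so row and genotype cannot be told apart. The Dot1l probe read -0.23 to -0.09 in WT and -0.21 to -0.04 in KO, a difference of 0.03 ± 0.08 (SE, n = 4 per group). Where it lies relative to the deleted part is not known here, so it does not check the labels. The kidney markers Six2 (progenitors) and Umod (loop of Henle) were well above background on all 8 arrays.

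Serum proteins of the fetus come mainly from the liver and the yolk sac. Alpha-fetoprotein is the main plasma protein of fetal life and albumin that of adult life, while transthyretin carries thyroid hormone, transferrin carries iron and retinol-binding protein carries vitamin A. Apolipoproteins form the protein coat of lipid particles: APOB holds the large particles together, APOA1 and APOA2 form high-density lipoprotein, and APOC1 and APOE exchange between particles, with APOE also made by macrophages and by many tissues outside the liver. The kidney filters the smaller of these proteins and takes them up again in the proximal tubule through the endocytic receptors megalin and cubilin.

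Afp and Alb are neighbours on chromosome 5 with no annotated gene start between theirs, and Apoc1 and Apoe neighbour each other in the same way on chromosome 7. The 250 bases before the start of Afp and of Alb are shown because these neighbours and relatives differed in detection, the Afp probe being bright and the Alb probe at background. Both runs are from RefSeq, build GRCm38.p6, on the plus strand. Capitals mark TATAAA, the letters of the TATA box of core promoters, searched on both strands.

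Afp, chr5:90490464-90490713: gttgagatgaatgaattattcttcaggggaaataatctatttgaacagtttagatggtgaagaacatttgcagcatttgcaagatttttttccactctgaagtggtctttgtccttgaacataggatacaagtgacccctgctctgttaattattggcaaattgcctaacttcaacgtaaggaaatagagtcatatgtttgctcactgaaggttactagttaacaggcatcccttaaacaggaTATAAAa
Alb, chr5:90460620-90460869: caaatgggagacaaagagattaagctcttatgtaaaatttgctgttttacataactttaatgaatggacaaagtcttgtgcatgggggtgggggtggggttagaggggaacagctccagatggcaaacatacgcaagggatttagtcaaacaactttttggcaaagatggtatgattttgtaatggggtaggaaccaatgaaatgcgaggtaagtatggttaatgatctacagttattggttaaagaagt

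The Afp run held TATAAA a single time, starting 7 bases before the start, and the Alb run had no such letters. They occurred in 12.4% of the 32851 stretches of the same length before RefSeq starts, and in 5 of 11 such stretches for 7 of the 10 genes, with starts of Apoa2, Apob, Apoe and Rbp4 beside that of Afp. A match of letters is a description of sequence, not a measured site, and a link to the difference in detection was not tested.

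The set divided into genes at background and genes that were easily read. On the 6 arrays with ordinary background the Afp probe gave red signals of 7439.4 to 15325.5 scanner units and the Apoe probe 13725.9 to 26134.1 units. The Alb probe gave 58 to 74.5 units, the Apoa1 probe 58 to 64 units over its 10 spots, and the Apob probes 55 to 68 and 57 to 67 units. None of these last 4 probes was well above background on any of the 6 arrays, and the negative-control medians were 58 to 61 units. On these 6 arrays Alb, Apoa1 and Apob were thus not detectable by these probes in either group, and no fold change is given for them. On the arrays with raised background Alb was called well above it on WT1 and Apoa1 on WT1 and KO1. In green, the same WT1 RNA on the other 6 arrays gave 25 to 31 units for Alb and 22.6 to 28.8 units for Apoa1. Neither was well above background in green on any of these 6, where green negative-control medians were 21 to 26 units. The low reading of Alb rests on a single probe on a single spot.

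**Figure D1:**
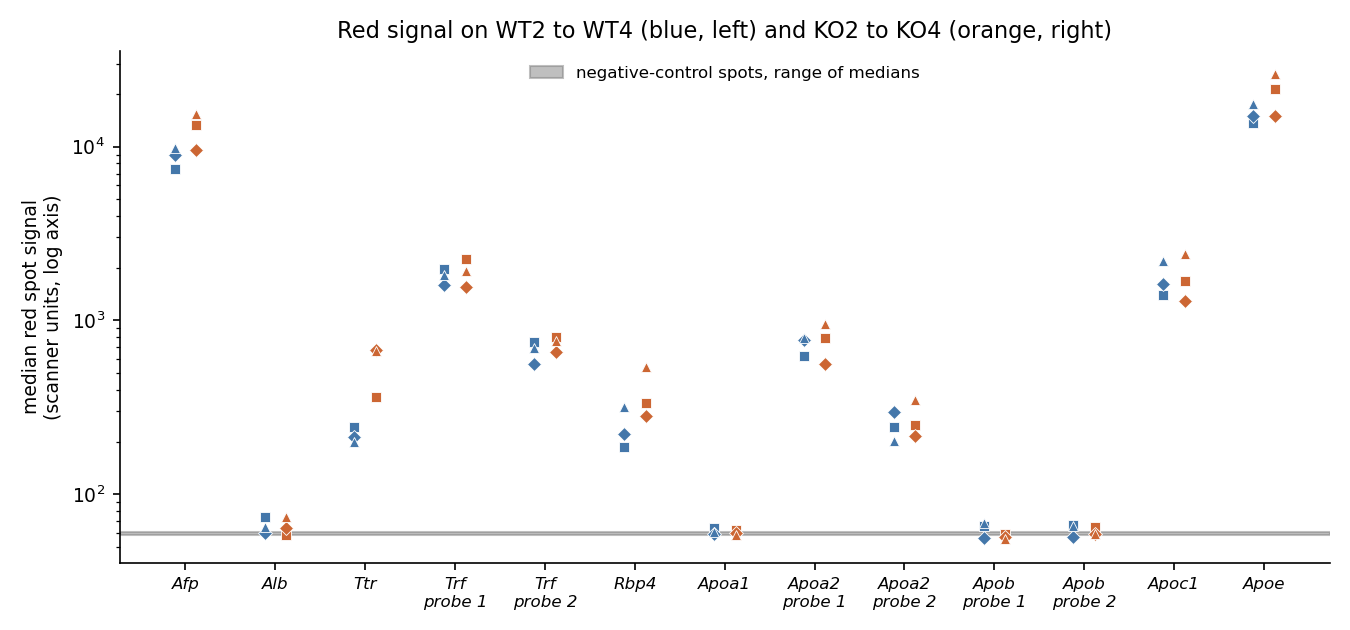
Median red spot signal (scanner units, log axis) of all 13 probes on the 6 arrays other than WT1 and KO1, WT in blue and KO in orange, with a grey band for the range of the negative-control medians. Alb, Apoa1 and both Apob probes lie at the band of 58 to 61 units, while Afp starts at 7439.4 and Apoe at 13725.9 units; probes differ in brightness by design, so heights are to be read against the band and not against each other.

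The remaining 9 probes, of 7 genes, exceeded background in red on 4 or more arrays and entered the test across 18146 probes. All 9 had a higher mean in KO, with a median difference of 0.45 against 0.02 over all probes tested. With limma and Benjamini-Hochberg adjustment over all probes, 2 of the 9 passed an adjusted p of 0.05, those of Afp and Apoe, where 1.54% of all probes passed. The same 2 had every KO array above every WT array, as did 5.93% of all probes; 2.62% had every KO array below, 8.55% together. Since the genes were chosen with this contrast known, nothing is read from these counts.

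Afp, the fetal relative of albumin, read -0.29, -0.43, -0.19 and -0.66 in WT1 to WT4 and 0.46, 0.42, 0.69 and 0.43 in KO1 to KO4. Every KO array lay above every WT array, and KO3 stood above the other 3 KO arrays, which were within 0.04 of each other. The difference was 0.89 ± 0.11 (SE, n = 4 per group), or 1.86-fold higher in KO. Spots of this probe, up to 10 an array, varied within an array with an SD of 0.03 to 0.07, well under the spread between embryos (SD 0.21 in WT and 0.13 in KO). Against WT2, the male WT embryo, the KO arrays were higher as well, and the difference with sex as a term was 0.93 ± 0.18, which did not pass. The difference was 0.94 ± 0.13 without WT1 and KO1.

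The colours of Afp were also read apart. On WT2 to WT4 the green signal, which comes from the same WT1 RNA everywhere, was 4333.8 to 4660.8 units, and on KO2 to KO4 it was 3397 to 3584.6 units, a log2 difference of -0.37 before any normalization. The median of all probes tested was -0.21 in green and -0.23 in red on the same scale. In red, Afp differed by 0.52 on that scale. With the red channel alone and without WT1 and KO1, Afp was higher by 0.76 ± 0.11 and passed, a setting added after the data were seen. With all 8 arrays it was 0.97 ± 0.28 in the red channel alone and 0.94 ± 0.29 with arrays centred on their medians rather than by loess, and passed in neither. The WT1 array, which holds the same RNA in both colours, should read 0 for every probe. It read -0.29 for Afp, and 15.2% of all probes were at least as far from 0, with a median distance of 0.12.

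Transthyretin, made in the liver and choroid plexus, had the widest spread. Ttr read 0.10, -0.35, -0.64 and -0.95 in WT1 to WT4 and 0.18, 0.08, 1.21 and 0.64 in KO1 to KO4. KO2 lay just under WT1, so the groups overlapped, while the other 3 KO arrays lay above every WT array. The difference was 0.99 ± 0.25, and the SD was 0.44 in WT and 0.51 in KO. Red signals were 200 to 244 units on WT2 to WT4 and 363 to 672 units on KO2 to KO4, with green signals of 145 to 163 and 131 to 155 units. Without WT1 and KO1 the groups no longer overlapped and the probe passed at 1.29 ± 0.26. The WT1 array compares WT1 RNA with itself and should read 0, near KO1 and KO2. This setting thus also leaves out the wildtype embryo that overlapped the KO group. The difference of the red channel alone was 0.33 ± 0.74 with all arrays and 1.23 ± 0.27 without WT1 and KO1, and passed in neither. With sex as a term the difference was 0.88 ± 0.40 and did not pass.

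Rbp4, the retinol carrier of plasma, read -0.01, -0.82, -0.60 and -0.52 in WT1 to WT4 and 0.06, -0.09, 0.10 and 0.26 in KO1 to KO4. Only WT1 reached the range of the KO arrays. The probe was not well above the raised background there, but that array compares WT1 RNA with itself and should read 0. In green, the same WT1 RNA gave 137 to 166.5 units on the other 6 arrays, well above background on all 6. Leaving out WT1 thus also leaves out a wildtype embryo. The difference was 0.57 ± 0.15 with all arrays and 0.74 ± 0.12 without WT1 and KO1, where the probe passed. It passed without WT1 alone too, at 0.73. With sex as a term the difference was 0.90 ± 0.21 and did not pass. That term sets the KO arrays against WT2 alone, the lowest WT array for Rbp4.

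Trf, which encodes transferrin, was read by a pair of probes that gave nearly the same difference. The brighter probe read -0.18, 0.30, 0.14 and -0.23 in WT1 to WT4 and 0.37, 0.57, 0.67 and 0.20 in KO1 to KO4. KO4 lay below WT2, so the groups overlapped. The differences were 0.45 ± 0.14 and 0.42 ± 0.12 at the 2 probes. With sex as a term, which sets the KO arrays against WT2, these fell to 0.16 and 0.17, each under its SE of 0.19 and 0.18. Before normalization the brighter probe differed by 0.07 in red and by -0.33 in green on WT2 to WT4 and KO2 to KO4. The medians of all probes tested were -0.23 in red and -0.21 in green on that scale. With the red channel alone and without WT1 and KO1 this probe differed by 0.305 ± 0.156 and did not pass.

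With the replicate number as a block, 4 member probes passed in place of 2, where 3.04% of all probes passed. Rbp4 (SE 0.12) and the brighter Trf probe (SE 0.08) were those added. Without WT1 and KO1 the count was also 4, with Ttr and Rbp4 added, where 1.27% of all probes passed.

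**Figure D2:**
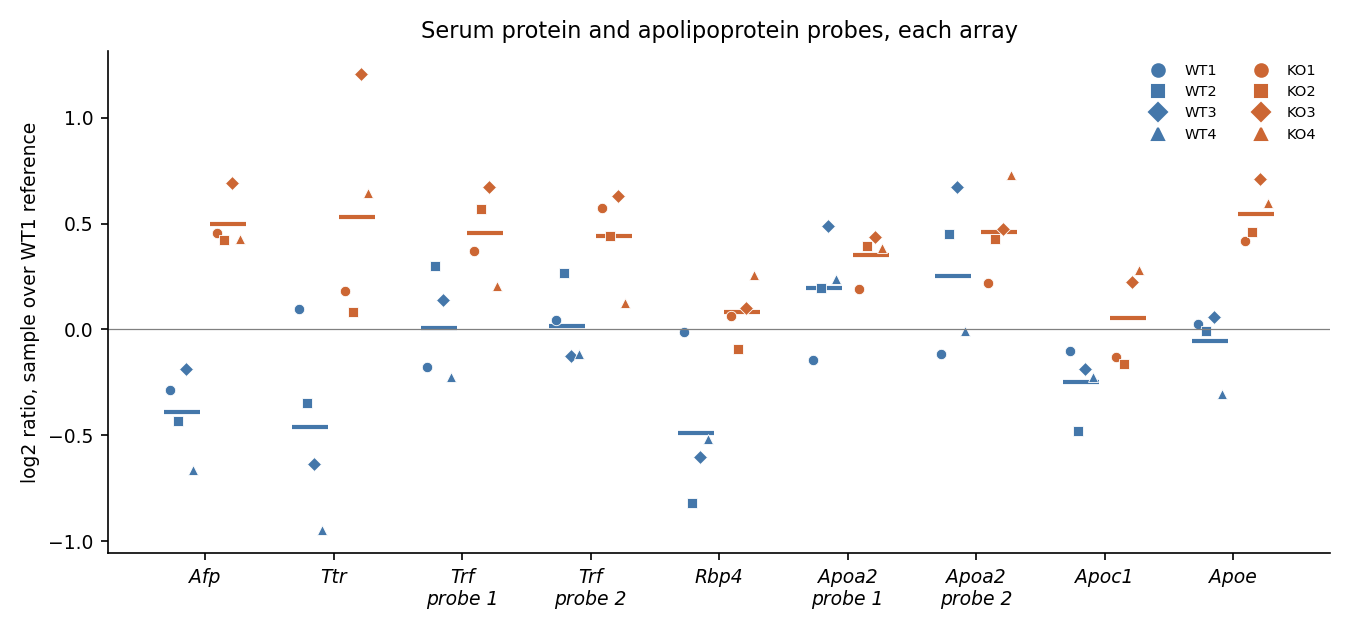
Log2 ratio of sample over WT1 reference for the 9 probes above background on each array, WT1 to WT4 in blue and KO1 to KO4 in orange, with a bar at each group mean. The groups are apart for Afp and Apoe, overlap by WT1 alone for Ttr and Rbp4, and overlap broadly for Apoa2.

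Apoe, the exchangeable apolipoprotein that macrophages also make, read 0.03, -0.01, 0.06 and -0.31 in WT1 to WT4 and 0.42, 0.46, 0.71 and 0.60 in KO1 to KO4. All KO arrays were above all WT arrays, and WT4 was lower than the other WT arrays, which were within 0.07 of each other. The difference was 0.60 ± 0.10, or 1.52-fold higher in KO, with a spot SD of 0.04 to 0.06 within arrays. It was 0.67 ± 0.12 without WT1 and KO1. It did not pass without KO4 (0.59), with sex as a term (0.55 ± 0.17), with the scanner software's own ratios (0.60 ± 0.11), with arrays centred on their medians (0.69 ± 0.32) or from red signals only (0.60 ± 0.19).

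Apoc1, the neighbour of Apoe and a small exchangeable apolipoprotein, read -0.10, -0.48, -0.19 and -0.23 in WT1 to WT4 and -0.13, -0.16, 0.22 and 0.28 in KO1 to KO4. KO1 and KO2 lay within the WT range and KO3 and KO4 above it. The difference was 0.30 ± 0.12, against 0.60 ± 0.10 for Apoe, and the difference between the genes was not tested. With sex as a term the values were 0.53 ± 0.18 for Apoc1 and 0.55 ± 0.17 for Apoe, and neither passed. That term sets the KO arrays against WT2 alone, which was the lowest WT array for Apoc1.

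Apoa2, a component of high-density lipoprotein, differed least. Its brighter probe read -0.15, 0.20, 0.49 and 0.24 in WT1 to WT4 and 0.19, 0.40, 0.44 and 0.38 in KO1 to KO4, and WT3 was above every KO array. The difference was 0.16 ± 0.12 at this probe and 0.21 ± 0.17 at the dimmer one. Without WT1 it was 0.04 and 0.09, and with sex as a term 0.16 ± 0.20 and 0.01 ± 0.26. Ordered by size, the differences ran from Ttr and Afp over Apoe, Rbp4, Trf and Apoc1 to Apoa2, with intervals of 1 SE that overlapped between each pair of neighbours other than Afp and Apoe.

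**Figure D3:**
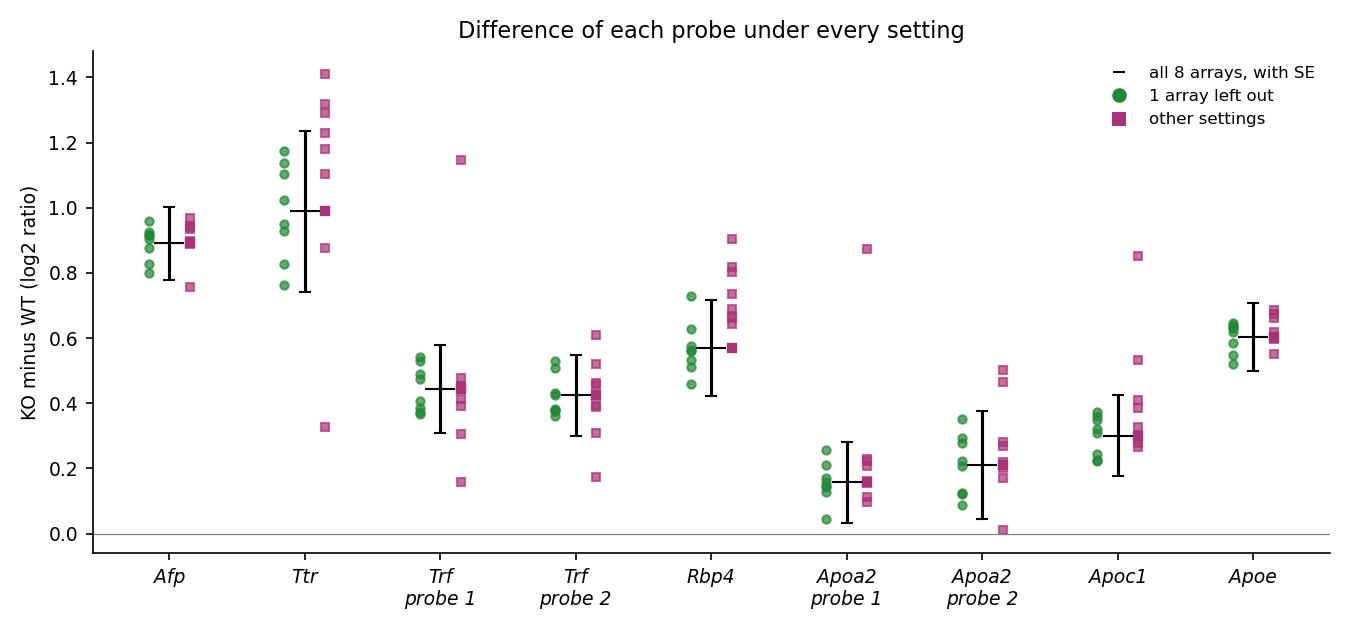
KO minus WT difference (log2 ratio) of each of the 9 probes with all 8 arrays (black bar, SE), with each array left out in turn (green) and under the other settings (purple). Afp stayed between 0.76 and 0.97 and Apoe between 0.52 and 0.69, while Trf probe 1, Apoa2 probe 1 and Apoc1 reached 1.15, 0.87 and 0.85 in the red channel alone with all 8 arrays.

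The extreme arrays within each group were not the same for all members. KO3 was the highest KO array for 6 of the 9 probes, against 31.9% of all probes tested, and WT4 was the lowest WT array for 4 of the 9, against 19.1%. Rbp4 and Apoc1 were instead lowest in WT2 and highest in KO4, and both Apoa2 probes were lowest in WT1. Of the 26 proximal tubule probes, WT4 was lowest in 26 and KO3 highest in 24. The mean of 22 proximal tubule genes ran from -0.75 in WT4 to -0.13 in WT1 and from -0.15 in KO2 to 0.84 in KO3. Ttr followed the same order of extremes, with -0.95 in WT4 and 1.21 in KO3. None of the proximal tubule probes passed in limma, although 19 had an unadjusted p under 0.05, and the list median was 0.49. Over all 18146 probes tested 2394 had such a p, or 13.2%, against which each count of this kind below is to be read. Slc7a7, an amino acid transporter, and Slc27a2, a fatty acid transporter, had the smallest p (0.50 ± 0.12 and 0.77 ± 0.19; adjusted p = 0.0572 and 0.0735). With the replicate block 6 of these probes rose, and 1 passed without KO1 and 1 without KO2. The part of the tubule signal in the members' values was not tested.

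Markers of liver cells were examined because the embryonic liver is the main source of these proteins. Of 24 hepatocyte enzyme genes on the array, 16 had no probe above background on 4 arrays, among them Cps1 and Otc of the urea cycle, Tat, Tdo2, Hpd and Cyp7a1. Together with Alb, Apoa1 and Apob, these markers were well above background on at most 2 of the 8 arrays. Of the 8 genes that were read, none passed and 5 probes, or 62.5%, had an unadjusted p under 0.05. Their mean lay between -0.33 and -0.05 in WT and between -0.05 and 0.53 in KO. G6pc, an enzyme of glucose release that proximal tubule cells also express, differed by 0.84 ± 0.27 (adjusted p = 0.174). The count was 1 with the replicate block and 1 without KO2.

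Other proteins that the liver secretes had calls in both directions. Of 37 genes on the array 26 were read, at 33 probes, of which 1 rose and 2 fell, where 1.12% of all probes rose and 0.419% fell. Cfi, the complement factor I protease, rose by 0.83 ± 0.11 (adjusted p = 0.00379), with WT values of -0.58 to -0.28 and KO values of 0.10 to 0.53. Gc, the vitamin D-binding protein and a relative of Afp and Alb, fell by 0.71 ± 0.14 (adjusted p = 0.0239; -0.65 and adjusted p = 0.053 at its other probe). The fibrinogen chain gene Fgb fell by 0.50 ± 0.10 (adjusted p = 0.0265). The groups did not overlap for any of these 3. Of the 33 probes 26 had a higher KO mean (78.8%, against 56.2% of all probes) and 12 an unadjusted p under 0.05 (36.4%, against 13.2%). The 26 include every probe of the related genes Serpina1a, Serpina1c, Serpina1d and Serpina1e, and the 12 include none. These probes shared a pattern, at 0.70 to 1.17 in WT2 and -1.82 to -0.62 in WT3, so they are not independent readings. The list median was 0.25, and 0.02 with sex as a term. The count of 3 was 7 with the replicate block (4 higher, 3 lower) and 5 without KO1. It was 2 without each of WT3 and KO3, and 1 without each of WT1, WT4, KO2 and KO4.

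Of 19 further genes of apolipoproteins and lipoprotein enzymes on the array, 9 were read at 10 probes, and their median difference was 0.00. Of these probes 1 fell and none rose, where 0.419% of all probes fell and 1.12% rose. Apom, the carrier of sphingosine 1-phosphate in lipoproteins and a gene of liver and kidney tubule, fell by 0.66 ± 0.12 (adjusted p = 0.0154), from -0.08 to 0.20 in WT to -0.76 to -0.26 in KO. It thus ran opposite to Apoe and Afp. The count of 1 was 2 with the replicate block and without WT3, and 0 without WT4, without KO2 or with the scanner software's own ratios.

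Receptors that take these proteins up were measured at 35 probes of 25 genes. None passed, 8 (22.9%, against 13.2% of all probes) had an unadjusted p under 0.05, and the list median was 0.09. Dab2, the adaptor that links megalin to the endocytic coat, differed by 0.43 ± 0.10 (adjusted p = 0.0634), and Abcg1, a cholesterol exporter, by 0.33 ± 0.09 (adjusted p = 0.111). Lrp2, which encodes megalin itself, read -1.61 to -0.05 in WT and -1.15 to 0.65 in KO, a difference of 0.27 ± 0.38, with WT4 lowest and KO3 highest. Its partner Cubn differed by 0.36 ± 0.32 and 0.22 ± 0.15 at its probes, and the transferrin receptor gene Tfrc by 0.06 ± 0.09. With the replicate block 2 probes rose, and 1 without WT3.

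Genes that handle the cargo of Rbp4 and Ttr, retinoid and thyroid hormone, were read at 21 probes of 19 genes. Of these 3 rose and none fell, with a list median of 0.18, where 1.12% of all probes rose and 0.419% fell. Aldh1a3, which makes retinoic acid, rose by 0.62 ± 0.10 (adjusted p = 0.00881), Crabp2, which carries it in the cell, by 0.63 ± 0.14 (adjusted p = 0.0458), and Dhrs3, which reduces retinal back to retinol, by 0.40 ± 0.08 (adjusted p = 0.0326). The count of 3 was 1 without each of WT1, KO2, KO3 and KO4, and 2 without each of WT2, WT3, WT4 and KO1. It was 1 without WT1 and KO1, and 1 with the software's ratios or with a normexp offset of 10. It was 2 without the filter on dim probes and 2 with every kept probe, named or not. Of the genes that handle iron, the cargo of transferrin, none of 19 probes passed and 6 (31.6%, against 13.2%) had an unadjusted p under 0.05. Heph, a ferroxidase, differed by 0.30 ± 0.09 (adjusted p = 0.15) and the haem oxygenase gene Hmox1 by -0.29 ± 0.10 (adjusted p = 0.2).

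Transcription factors of the liver programme were read at 31 probes of 21 genes, and 2 rose, where 1.12% of all probes rose. Nr1h4, the bile acid receptor FXR of liver and kidney tubule, rose by 0.98 ± 0.15 (adjusted p = 0.0094), with WT values of -0.58 to -0.07 and KO values of 0.28 to 1.08. Cebpd, an inducible activator of acute phase genes, rose by 0.45 ± 0.09 (adjusted p = 0.0225). Hnf4a, which controls many serum protein genes in liver, differed by 0.11 ± 0.11 (adjusted p = 0.732). The count was 5 with the replicate block, and 1 without each of WT1, WT2, KO2, KO3 and KO4 and with the software's ratios.

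Macrophages make APOE, and their markers were higher in the same group. Of 17 genes read at 22 probes, 6 probes of 5 genes rose and none fell, where 1.12% of all probes rose and 0.419% fell. The list median was 0.29. The mean of the list lay between -0.22 and -0.05 in WT and between 0.18 and 0.23 in KO, without overlap. The mannose receptor gene Mrc1 rose by 0.56 ± 0.08 (adjusted p = 0.00654), Pf4 by 0.54 ± 0.10 (adjusted p = 0.0173), the chemokine receptor gene Cx3cr1 by 0.51 ± 0.09 (adjusted p = 0.0142), the transglutaminase gene F13a1 by 0.47 ± 0.09 (adjusted p = 0.0252) and the surface marker gene Adgre1 by 0.42 ± 0.09 (adjusted p = 0.0386). Adgre1 did not pass at its other probe (0.25 ± 0.10, adjusted p = 0.297). Cx3cr1 passed at a further probe (0.49 ± 0.09, adjusted p = 0.0194) but not at another (0.30 ± 0.10, adjusted p = 0.199). The count of 6 was 2 to 6 with 1 array left out: 3 without WT1, 3 without WT4, 2 without KO2 and 2 without KO4 among these. It was 3 without WT1 and KO1 and 2 with the software's ratios. The part of macrophages in the Apoe difference was not tested. Erythroid genes, which mark blood and also the blood-forming fetal liver, had a mean of -0.35 to 0.01 in WT and of -0.41 to -0.04 in KO. The KO1 mean, -0.04, is pulled down by Hbb-b2, which read -4.79 in KO1 and -0.88 to 0.37 on the other arrays. The mean also joins opposite shifts, with 8 of the 14 probes higher in KO. Hba-a2 differed by 0.45 ± 0.19, and Hba-x by -0.63 ± 0.43. None of their 14 probes passed and 3 (21.4%, against 13.2% of all probes) had an unadjusted p under 0.05. The haem synthesis gene Alas2 differed by 0.48 ± 0.15 (adjusted p = 0.163) and the embryonic globin gene Hbb-bh1 by -0.54 ± 0.18 (adjusted p = 0.193). With the replicate block 4 erythroid probes rose, and 1 without WT1 and KO1.

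**Figure D4:**
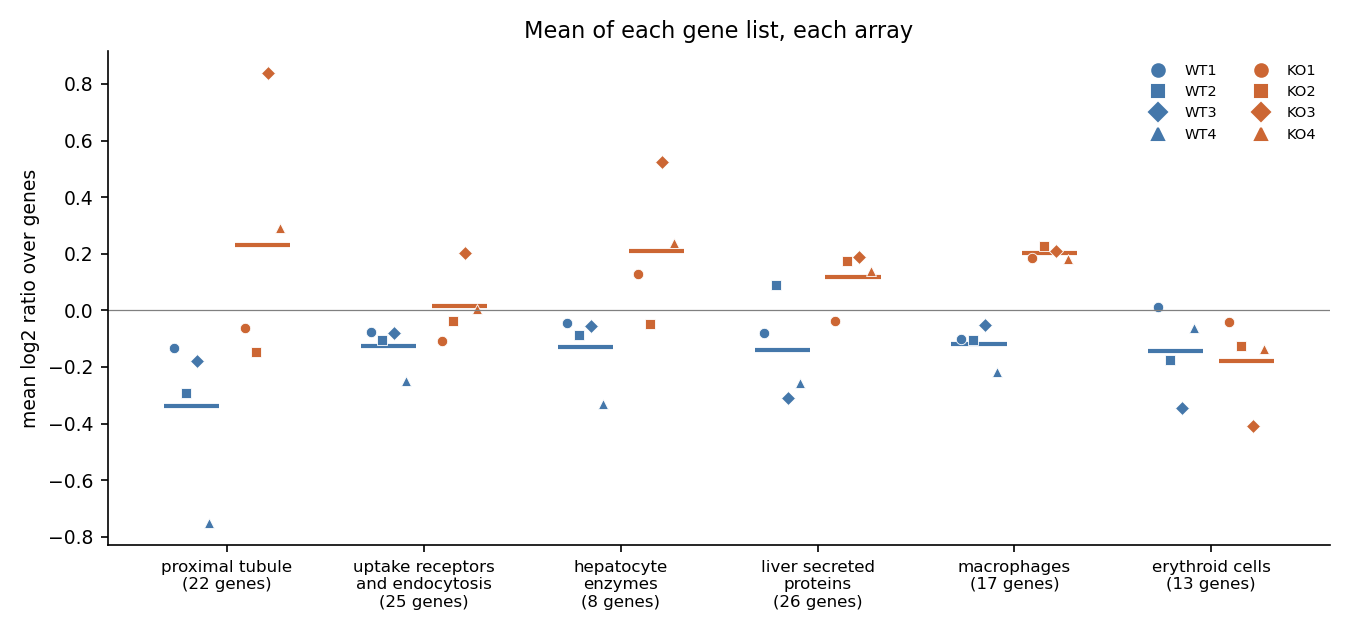
Mean log2 ratio over the genes of 6 lists on each array, WT in blue and KO in orange, with a bar at each group mean. Macrophage means of WT and KO do not overlap, while the proximal tubule list spans -0.75 in WT4 to 0.84 in KO3 with overlap of the groups.

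The genes whose ratios ran closest to Afp over the 8 arrays were Pdgfra, a growth factor receptor of fibroblasts, Fxyd4, a regulator of the sodium pump in the collecting duct, Cfi, Plet1, an epithelial surface protein, and H2-K1, a class I histocompatibility gene whose probe may also detect related genes. Likeness was measured as the root mean square difference of the ratios, each gene centred on its own mean, which was 0.12 to 0.14 for these 5, where Afp itself had an SD of 0.50. They were picked for this likeness, and their differences of 0.73, 0.79, 0.83, 0.90 and 0.88 are part of it.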

How the data were processed

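Total RNA of 8 kidney pairs was hybridised to 2-colour Agilent mouse arrays, per the labels. The arrays had been read with version 10.7.3.1 of Agilent Feature Extraction, per the file headers. The deposited intensity columns are median red and green spot signals and local background medians on a linear scale, beside intensities that the software had background-subtracted and dye-normalized, log10 ratios of processed red over green, and flags of 0 or 1. The deposited value table of the series held the same log10 ratios to within 0.005, with column medians of 0, so its scale and direction were known.

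In R 4.3.3 with limma 3.58.1, the median signals received normexp correction (offset 50) and then loess within arrays, in which control spots had weight 0. Spot readings marked as outliers by the software (1765 of 474440) were left out, and spots of a probe were averaged. Of 55681 probes, 27509 were named through RefSeq (GRCm38.p6, used for names, gene order and the printed sequences; the file headers name mm9), and 18146 of them, of 13982 genes, were well above background in red on at least 4 of the 8 arrays. A probe counted as above background on an array when most of its spots were. That filter admits a probe that only 1 group expresses; no member probe was admitted in that way. KO was compared with WT by lmFit and eBayes on log2 ratios over these probes, with Benjamini-Hochberg adjustment at 0.05. SE is the moderated standard error. Precision is set by the 8 arrays.

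The fit was tested on simulated data. Members, gene lists and tests were chosen with earlier results of these data known. Named beyond the members were, for each list, up to 6 genes that passed or up to 2 with the smallest p where none did, and the 5 genes nearest to Afp; those nearest to Alb, which was at background, are not given. Lrp2, Cubn, Tfrc and Hnf4a were named, and the TATAAA letters searched, after values were seen. A gene that the rule would name is not reported here. For same-numbered samples, which share a slide column, the correlations of their deviations were 0.14, 0.37, 0.23 and 0.31. Those of differently numbered samples ran from -0.55 to 0.36, with 0.36 for WT4 and KO1 and 0.32 for WT2 and KO3. The replicate block treats equal numbers as pairs, which these values do not establish.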

Additional observations from a re-analysis of the deposited data

Results flagged for a closer look

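The value of Afp in KO3, 0.69, stood apart from the other 3 KO arrays, at 0.42 to 0.46, by more than the 95% critical value of Dixon's test for 4 samples (gap over range, 0.863). Chance marks about 1 in 20 groups in this way, and the WT and KO groups of 9 probes were looked at. Without KO3 the Afp difference was 0.83.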

How the results depend on the processing

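The 9 member probes above background kept a higher KO mean under each alternative that tested them (1 probe per gene left out Trf probe 2 and Apoa2 probe 2), the lowest being 0.01 ± 0.26 for Apoa2 probe 2 with sex as a term. Of 280 probes called over the array, the count was 103 with the scanner software's ratios, 0 with median centring in place of loess, 1 with the red channel alone, 551 with the replicate block and 13 with sex as a term, and 79 to 323 with 1 array left out. In the median-centred and red settings 203 and 112 probes had an unadjusted p under 0.05. The count of member probes, 2, was 1 with the software's ratios, 0 with median centring, 0 with the red channel alone, 4 with the replicate block, 0 with sex as a term, 4 without WT1 and KO1, and 1 to 3 with 1 array left out. Settings added after the data were seen left out WT1 and KO1 as well: with the red channel alone 141 probes and 2 member probes were called, and with median centring 9 and 0. Under median centring, the red channel alone with all arrays and sex as a term no probe of the 10 gene lists passed. Aquantile changed nothing, since it leaves the ratios as they are. The cause of the other changes was not tested. The replicate block changed no other call among the members. Signals at background limit Alb, Apoa1 and Apob.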
